A study of Mus musculus with 20 samples.

Results

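The 8 genes described here mark the neural crest: Pax3, Tfap2a, Foxd3, Snai2, Ets1, Sox10, Tfap2b and Twist1. They were taken by symbol from count tables of E8.5 mouse embryos and of mouse embryonic stem cells (mESCs), and all 8 are among the 22729 genes counted in embryos. The tested group was 6 Zmym2-/- whole embryos, and it was set against 6 Zmym2+/+ whole embryos of the same C57BL/6 strain, with 3 males and 3 females of each genotype. The Zmym2- allele is a frameshift in the first coding exon, and the study sequenced E8.5 embryos that looked normal. Each embryo was 1 library and 1 replicate. For context, 2 clonal Zmym2-/- lines and 2 clonal control lines of V6.5 mESCs, a C57BL/6x129/SvJae line, were sequenced as mESCs in serum with LIF (day 0) and as embryoid bodies (EBs, day 3). The Zmym2-/- lines were made with the guide that made the mouse allele, and the control lines with a non-targeting guide (NT), so each genotype rests on 2 clones. The mESC table holds 6 of the 8 genes, without Pax3 and Tfap2b, and the EB table holds 7, without Tfap2b.

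The neural crest forms at the border of the neural plate, leaves the closing neural tube and migrates through the embryo. WNT, BMP and FGF signals set up the border, where Pax3 and Tfap2a are switched on. Foxd3, Snai2 and Ets1 then specify crest cells and prepare them to detach. Sox10 marks migrating crest and later glia and pigment cells, and Tfap2b is used in migrating crest and its derivatives. Twist1 serves the crest of the head and the head mesoderm. Cranial crest begins to migrate at about the embryonic age studied here, so a whole embryo holds only some of these cells, and fewer crest cells and less RNA per cell cannot be told apart in such a sample.

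Libraries held between 32016880 and 64057608 counts, and embryos between 38142819 and 64057608. Levels are CPM, the counts scaled to library size, after TMM scaling. Zmym2 itself had 25.4 to 67.1 CPM (median 47.7) in Zmym2-/- embryos, against 50.3 to 125 CPM (median 87.9) in Zmym2+/+ embryos. The 2 ranges overlapped, and the difference of -0.91 on the log2 scale did not pass the test across all genes (SE 0.25, edgeR adjusted p = 0.226). In the lines, Zmym2 fell by 1.3 in Zmym2-/- mESCs (edgeR adjusted p = 3.07e-06) and by 1.55 in Zmym2-/- EBs (edgeR adjusted p = 9.70e-08), both on the log2 scale. The RNA left in Zmym2-/- samples does not measure protein, since the allele is a frameshift.

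Of the 8 genes, 4 have an entry among RefSeq promoter sequences (GRCm38.p6): Foxd3, Tfap2a (2 starts), Tfap2b and Twist1. Pax3, Snai2, Ets1 and Sox10 have none. The 250 bases upstream of the start are shown for Foxd3 and Tfap2b, because these genes had the widest spread between Zmym2-/- embryos among the 8, and capitals mark the E-box CACGTG.
Foxd3: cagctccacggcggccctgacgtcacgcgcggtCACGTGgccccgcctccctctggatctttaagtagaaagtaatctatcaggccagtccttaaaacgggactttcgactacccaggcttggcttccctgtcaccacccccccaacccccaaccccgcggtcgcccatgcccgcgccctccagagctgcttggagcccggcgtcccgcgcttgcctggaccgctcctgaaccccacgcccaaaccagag
Tfap2b: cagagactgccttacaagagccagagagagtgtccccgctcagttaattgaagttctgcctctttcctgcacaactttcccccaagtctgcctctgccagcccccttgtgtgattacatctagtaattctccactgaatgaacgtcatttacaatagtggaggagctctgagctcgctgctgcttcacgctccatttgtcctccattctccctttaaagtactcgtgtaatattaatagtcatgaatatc
The Foxd3 sequence is chr4:99656049-99656298 on the plus strand, directly before the gene, and the Tfap2b sequence is chr1:19211804-19212053 on the plus strand, before a start that lies inside the GENCODE gene. The E-box (CACGTG, which reads the same on both strands) was present 1 time in the Foxd3 window and in none of the other windows, and 6.02% of 32851 promoter windows hold it. The TFAP2 palindrome GCCNNNGGC, found in 13.7% of windows, and the Snail motif CAGGTG on either strand, found in 17.2%, were absent from all 5 windows of the 4 genes. The Foxd3 window held 21 CpG sites, more than 83.7% of all windows, and the Tfap2b window held 5, near the median of 6. These motifs were chosen after the expression values were seen, and a match is not evidence of binding.

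The first comparison asked whether loss of Zmym2 changed crest gene levels in embryos at E8.5. None of the 8 genes passed the test in Zmym2-/- embryos against Zmym2+/+ embryos (edgeR quasi-likelihood test, adjusted p under 0.05 over 22729 genes). None had an unadjusted p under 0.05 either, beside 2738 of the 22729 genes. DESeq2 also called 0 of the 8. Over all genes, 0.524% were called (119 genes, of which 116 were higher). This direction did not hold in every subset, since 253 of the 384 genes called in males were lower. The log2 fold changes of the 8 genes ran between -1.20 for Tfap2b and 0.67 for Sox10, with a median of -0.06 against 0.02 over all genes tested. Positive values were seen for 3 genes and negative values for 5. The plot of levels by embryo shows where the spread lies.

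**Figure D1:**
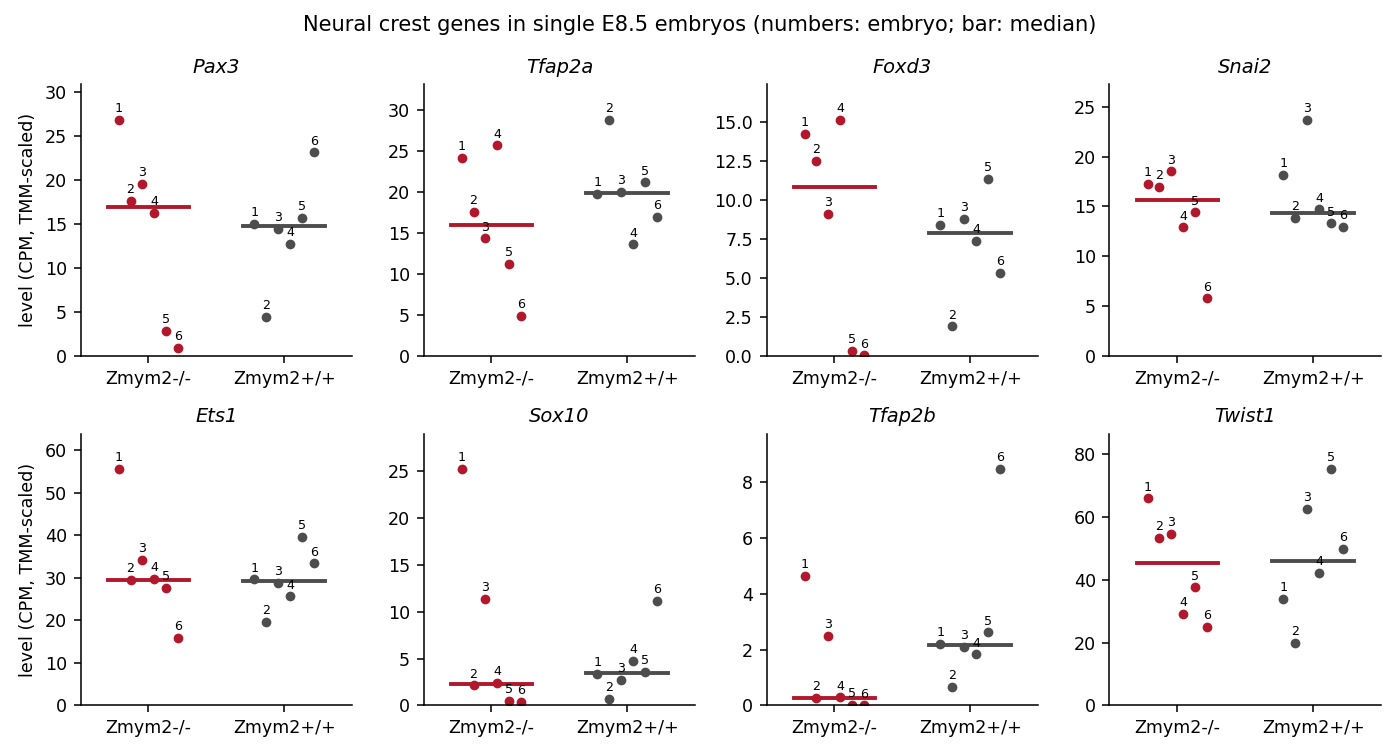
Level of each of the 8 genes (CPM after TMM scaling, linear axis starting at 0) in 6 Zmym2-/- embryos (left in each panel) and 6 Zmym2+/+ embryos (right). Each numbered point is 1 embryo and the bar is the median. The groups overlap for every gene, and Zmym2-/- embryos 5 and 6 lie near 0 for Foxd3, Sox10 and Tfap2b.

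The border genes differed little between genotypes in their medians but spread more widely in Zmym2-/- embryos. Pax3 (chromosome 1, 78101267 to 78197134, minus strand in GENCODE M21 on GRCm38) is a paired-box factor of the dorsal neural tube and border. It had 0.996, 2.9, 16.3, 17.6, 19.6 and 26.8 CPM in the Zmym2-/- embryos, against 4.51, 12.8, 14.4, 15.1, 15.7 and 23.1 CPM in the Zmym2+/+ embryos. Embryos 5 and 6 of the Zmym2-/- group were below every Zmym2+/+ embryo, embryo 1 was above them all, and the fold change was -0.02 on the log2 scale (SE 0.60, edgeR adjusted p = 0.992). Tfap2a (chromosome 13, 40715302 to 40738376, minus strand) encodes AP-2 alpha, which acts in surface ectoderm, border and crest. It had 4.95, 11.2, 14.4, 17.5, 24.1 and 25.7 CPM in Zmym2-/- embryos, against 13.6, 17.0, 19.8, 20.0, 21.2 and 28.7 CPM in Zmym2+/+ embryos. The ranges overlapped, with the 2 lowest levels in Zmym2-/- embryos 6 and 5 (log2 fold change -0.30, SE 0.32, edgeR adjusted p = 0.745).

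Among the specifiers, Foxd3 fell into separate levels within the Zmym2-/- group, while Snai2 and Ets1 were far more even. Foxd3 (chromosome 4, 99656299 to 99658622, plus strand) is a forkhead repressor of premigratory crest that is also used in pluripotent cells. It had 0.0604, 0.372, 9.10, 12.5, 14.2 and 15.1 CPM in the Zmym2-/- embryos, against 1.93, 5.36, 7.40, 8.40, 8.77 and 11.4 CPM in the Zmym2+/+ embryos. Behind the lowest levels stood 4 reads in Zmym2-/- embryo 6 and 15 reads in Zmym2-/- embryo 5, whereas Zmym2-/- embryos 1, 2 and 4 were above every Zmym2+/+ embryo. The fold change was 0.25 on the log2 scale (SE 0.84, edgeR adjusted p = 0.932).

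Snai2 (chromosome 16, 14705852 to 14709385, plus strand), the zinc-finger repressor Slug that acts as crest cells detach, had 5.81 to 18.5 CPM (median 15.7) in Zmym2-/- embryos, against 12.9 to 23.7 CPM (median 14.3) in Zmym2+/+ embryos. Zmym2-/- embryo 6 was the lowest and the other 5 stood at 12.9 CPM or above (log2 fold change -0.17, SE 0.26, edgeR adjusted p = 0.823). Ets1 (chromosome 9, 32636221 to 32757820, plus strand), an ETS factor of cranial crest that endothelium and blood cells also use, had 15.8 to 55.5 CPM (median 29.6) in Zmym2-/- embryos, against 19.6 to 39.6 CPM (median 29.2) in Zmym2+/+ embryos. Both its lowest and its highest level were in the Zmym2-/- group, in embryos 6 and 1 (log2 fold change 0.12, SE 0.25, edgeR adjusted p = 0.878).

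Sox10 and Tfap2b, of migrating and later crest, differed widely between embryos of 1 genotype. Sox10 (chromosome 15, 79154908 to 79165240, minus strand), an SRY-box factor, had 0.392, 0.496, 2.14, 2.42, 11.4 and 25.2 CPM in the Zmym2-/- embryos, against 0.743, 2.74, 3.35, 3.56, 4.80 and 11.2 CPM in the Zmym2+/+ embryos. Embryos 5 and 6 of the Zmym2-/- group had the lowest levels of all 12 and embryos 1 and 3 the highest, so the groups overlapped throughout (log2 fold change 0.67, SE 0.89, edgeR adjusted p = 0.794). Tfap2b (chromosome 1, 19208914 to 19238576, plus strand), which encodes AP-2 beta, had 0, 0.0248, 0.276, 0.293, 2.50 and 4.64 CPM in the Zmym2-/- embryos, against 0.660, 1.83, 2.10, 2.20, 2.62 and 8.46 CPM in the Zmym2+/+ embryos. No read fell on it in Zmym2-/- embryo 6, which allows a level of up to 0.0453 CPM (3 counts, counting error only), and 1 read fell on it in Zmym2-/- embryo 5. Of the 6 Zmym2-/- embryos, 4 were below every Zmym2+/+ embryo and 2 were within their range, and the fold change was -1.20 on the log2 scale (SE 1.05, edgeR adjusted p = 0.671).

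Twist1 (chromosome 12, 33957671 to 33959829, plus strand), a basic helix-loop-helix factor, had 25.0 to 65.8 CPM (median 45.4) in Zmym2-/- embryos, against 19.9 to 75.2 CPM (median 46.0) in Zmym2+/+ embryos. The Zmym2-/- range lay wholly inside the Zmym2+/+ range (log2 fold change -0.10, SE 0.31, edgeR adjusted p = 0.929).

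Levels per transcript length, as the deposited RPKM give them, put the genes in nearly the same order in both genotypes. Median RPKM in Zmym2-/- embryos was 28.8 for Twist1, 7.89 for Snai2, 5.18 for Tfap2a, 4.90 for Foxd3, 3.56 for Ets1, 2.79 for Pax3, 0.855 for Sox10 and 0.046 for Tfap2b. In Zmym2+/+ embryos it was 27.9 for Twist1, 6.80 for Snai2, 5.89 for Tfap2a, 3.31 for Ets1, 3.18 for Foxd3, 2.29 for Pax3, 1.25 for Sox10 and 0.326 for Tfap2b. Foxd3 and Ets1 changed places, and their ranges over embryos overlapped in both groups. In Zmym2-/- embryos only Twist1, at 16.2 to 44.4 RPKM, stood clear of its neighbour Snai2, at 2.99 to 9.65 RPKM.

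The spread itself was large for 4 of the genes. The SD of log2 CPM over Zmym2-/- embryos was 3.43 for Tfap2b, 3.33 for Foxd3, 2.37 for Sox10 and 1.90 for Pax3, against 1.17, 0.91, 1.27 and 0.79 for the same genes over Zmym2+/+ embryos. The median gene of the 13830 with a mean of at least 1 CPM had an SD of 0.33 in Zmym2-/- embryos and 0.38 in Zmym2+/+ embryos. For Foxd3, 99.7% of these genes had a smaller SD in Zmym2-/- embryos and 91.4% had one in Zmym2+/+ embryos. Ets1, at 0.58 in Zmym2-/- embryos and 0.34 in Zmym2+/+ embryos, and Snai2, at 0.62 and 0.34, were nearer to the median gene. Tfap2a was at 0.875 and 0.357, and Twist1 went the other way, at 0.554 and 0.685. The difference in spread between genotypes was not tested.

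The same embryos were low or high for most of the genes. Zmym2-/- embryo 6 had the lowest level of the 12 for 7 of the 8 genes and the second lowest for the other. Zmym2-/- embryo 5 was among the 2 lowest for 5 genes. Among Zmym2+/+ embryos, embryo 2 was the lowest for Twist1 and among the 4 lowest for 5 genes, although it had the highest Tfap2a of all 12. At the other end, Zmym2-/- embryo 1 was among the 2 highest for 6 genes. The names of the embryos carry numbers, and Zmym2-/- embryo 5 shares its number with Zmym2+/+ embryo 2, Zmym2-/- embryo 6 with Zmym2+/+ embryo 3, Zmym2-/- embryo 4 with Zmym2+/+ embryos 1 and 4, and Zmym2-/- embryos 1, 2 and 3, the 3 males, share 1 number that no Zmym2+/+ embryo has. The labels do not say what these numbers mean.

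Among the embryos that share a number across genotypes, the Zmym2-/- embryo was the lower one for Sox10 and Tfap2b each time. The share of all genes with this order was not counted. These Zmym2-/- embryos, 4, 5 and 6, are the females, and their Zmym2+/+ counterparts are males 1, 2 and 3 and female 4. Zmym2-/- embryo 4 was above both of its counterparts for Pax3 and Foxd3. Sox10 had 0.496 CPM in Zmym2-/- embryo 5, against 0.743 CPM in Zmym2+/+ embryo 2, and 0.392 CPM in Zmym2-/- embryo 6, against 2.74 CPM in Zmym2+/+ embryo 3. It had 2.42 CPM in Zmym2-/- embryo 4, against 3.35 and 4.80 CPM in Zmym2+/+ embryos 1 and 4. A fit of these 7 embryos with the number as a block gave Sox10 a log2 fold change of -1.28, against 0.67 over all 12 embryos, and called neither gene (edgeR adjusted p = 0.312 for Sox10 and 0.277 for Tfap2b, whose log2 fold change was -4.20).

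Markers of some other tissues set Zmym2-/- embryos 5 and 6 apart, and others set Zmym2-/- embryo 4 apart. Zmym2+/+ embryo 2 stood out for other lists, with the lowest neural tube sum (119 CPM) and the highest surface ectoderm sum (2012 CPM) of all 12. The 8 neural crest genes summed to 53.1 to 234 CPM in Zmym2-/- embryos, lowest in embryos 6 and 5 (94.6 CPM), and to 90.0 to 183 CPM in Zmym2+/+ embryos, lowest in embryo 2. A list of 13 posterior Hox genes, which come on as the trunk extends, summed to 42.3 CPM in Zmym2-/- embryo 6 and to 186 to 307 CPM in the other Zmym2-/- embryos, against 124 to 316 CPM in Zmym2+/+ embryos. Embryo 6 was thus the lowest of all 12 for the posterior Hox genes, while embryo 5 (207.5 CPM) was within the Zmym2+/+ range. A list of 12 genes of motile cilia and the node summed to 77.5 and 198 CPM in Zmym2-/- embryos 5 and 6 and to 15.6 to 31.5 CPM in the other 4, against 10.95 to 32.8 CPM in Zmym2+/+ embryos. Foxj1, the regulator of motile cilia, reached 82.5 CPM in Zmym2-/- embryo 6 and 9.81 CPM in Zmym2-/- embryo 5, and was between 0.914 and 1.94 CPM in every other embryo of either genotype.

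A list of 8 genes of pluripotent cells summed to 220 and 461 CPM in Zmym2-/- embryos 5 and 6 and to 25.5 to 136 CPM in the other 4, against 21.5 to 166 CPM in Zmym2+/+ embryos. Pou5f1, which encodes OCT4, had 136 and 364 CPM in Zmym2-/- embryos 5 and 6, against 4.28 to 61.3 CPM in Zmym2+/+ embryos. Markers of yolk sac endoderm and trophoblast summed to 5742 and 6400 CPM in Zmym2-/- embryos 5 and 6 and to 1668 to 3606 CPM in the other 4, against 1435 to 3563 CPM in Zmym2+/+ embryos. In Zmym2-/- embryo 1, with the highest crest sum, these lists stood at 281 CPM (posterior Hox), 31.5 CPM (cilia and node), 25.5 CPM (pluripotent) and 1668 CPM (yolk sac and trophoblast), and Zmym2+/+ embryo 2 had the lowest cilia and node sum of all 12. Zmym2-/- embryos 5 and 6 were within the Zmym2+/+ range for the somite (67.1 and 75.5 CPM), head mesoderm (72.1 and 55.7 CPM), neural tube (138 and 211 CPM), surface ectoderm (1475 and 1477 CPM) and blood lists (118 and 226 CPM), and embryo 6 was below it for endothelium (191 CPM). Zmym2+/+ embryo 2 set the lower edge of the Zmym2+/+ range for neural tube (119 CPM) and head mesoderm (52.8 CPM). By contrast, Zmym2-/- embryo 4 was below the Zmym2+/+ range for the somite list (18.4 CPM, against 37.0 to 157 CPM) and for head mesoderm (48.9 CPM). Of the 12 cilia and node genes, only 1 had no read in 1 embryo, and all 8 pluripotency genes had reads in every embryo. The part of these differences between embryos in the levels of the crest genes was not tested.

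**Figure D2:**
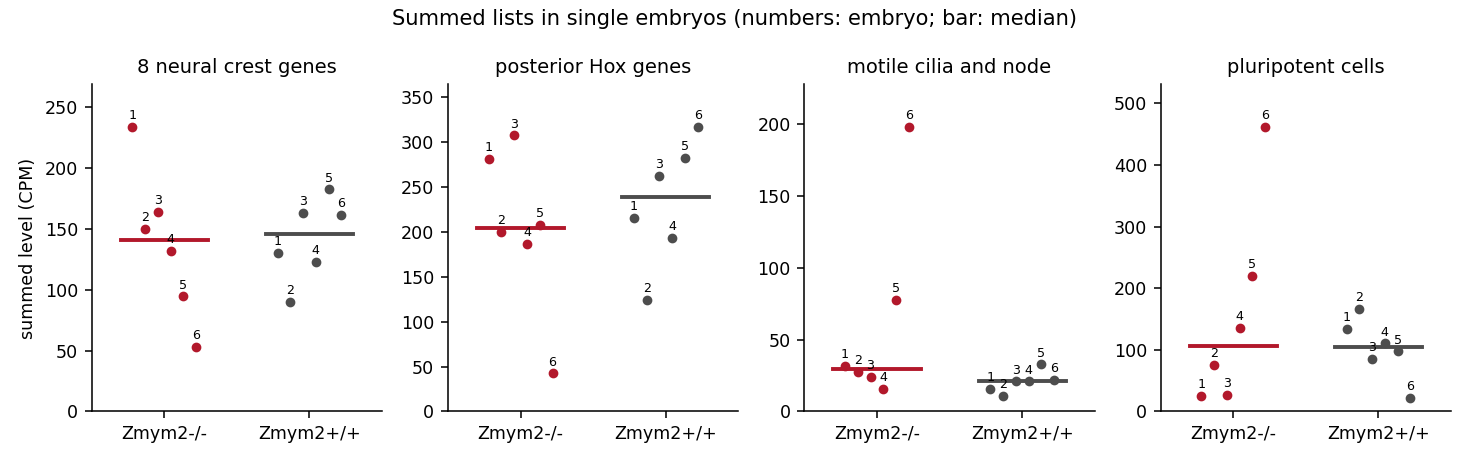
Summed level (CPM) of the 8 neural crest genes, of 13 posterior Hox genes, of 12 genes of motile cilia and the node and of 8 genes of pluripotent cells in 6 Zmym2-/- embryos (left) and 6 Zmym2+/+ embryos (right), each panel on its own linear axis. Each numbered point is 1 embryo and the bar is the median; Zmym2-/- embryos 5 and 6 are the highest 2 for cilia and pluripotency, and embryo 6 is the lowest for crest and posterior Hox genes.

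Without Zmym2-/- embryos 5 and 6, the genotype difference stayed uncalled for all 8 genes, but its sign turned for 4 of them. The log2 fold change was then 0.49 for Pax3, 0.03 for Tfap2a, 0.82 for Foxd3, 0.03 for Snai2, 0.34 for Ets1, 1.22 for Sox10, -0.63 for Tfap2b and 0.10 for Twist1. Pax3, Tfap2a, Snai2 and Twist1 were the genes whose sign turned, and the smallest adjusted p was 0.572 (edgeR). Of the 8 values 7 were positive, 1 had an unadjusted p under 0.05, and the median was 0.22 against 0.00 over all genes. Embryos 5 and 6 had the lowest sums of these same 8 genes in the Zmym2-/- group. Leaving them out therefore had to raise the Zmym2-/- levels, and the turned signs and the higher median are no separate result. Without Zmym2+/+ embryo 2 as well, Foxd3 differed by 0.63 and Twist1 by -0.05, and again 0 of 8 were called by edgeR, with 1 unadjusted p under 0.05. Leaving out Zmym2-/- embryo 1 alone turned Sox10 to -0.39 and Ets1 to -0.11, and moved Tfap2b to -2.25. Leaving out Zmym2+/+ embryo 6 alone moved Tfap2b to -0.51 and Sox10 to 1.23.

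Males and females gave opposite differences for several genes, but the sex by genotype interaction called 0 of the 8 and 0% of 22729 genes (edgeR), with 4 of the 8 and 5067 of all genes at an unadjusted p under 0.05. Sox10 had 25.2, 2.14 and 11.4 CPM in Zmym2-/- males, against 3.35, 0.743 and 2.74 CPM in Zmym2+/+ males. It had 2.42, 0.496 and 0.392 CPM in Zmym2-/- females, against 4.80, 3.56 and 11.2 CPM in Zmym2+/+ females. All Zmym2-/- females were thus below all Zmym2+/+ females, whereas 1 of the 3 Zmym2-/- males lay within the range of the Zmym2+/+ males. The difference between sexes was 5.08 on the log2 scale (SE 1.3, edgeR adjusted p = 0.0713), and all 3 Zmym2-/- females were below all 3 Zmym2+/+ females for Tfap2b too (difference between sexes 6.01, SE 1.62, edgeR adjusted p = 0.0752). The share of all genes that separate the females in this way was not counted, so both separations are only a description. DESeq2 called these 2 genes (adjusted p = 0.000882 for Sox10 and 0.0147 for Tfap2b) and 2584 genes in all. Without Zmym2-/- embryo 4, edgeR called 3 of the 8 for this difference, namely Foxd3 (6.21, adjusted p = 0.0449), Pax3 (4.07, adjusted p = 0.0467) and Sox10 (6.38, adjusted p = 0.0491), with 208 of 22687 genes called. That fit leaves embryos 5 and 6, those with the lowest crest sums of their group, as the only Zmym2-/- females. Without Zmym2+/+ embryo 3 it called 1 of the 8, Twist1 (2.02, adjusted p = 0.0272), and 1653 of 22695 genes. Without Zmym2-/- embryos 5 and 6 the difference was 3.93 for Sox10 and 4.45 for Tfap2b, and neither passed (edgeR adjusted p = 0.209 and 0.215). The 2 Zmym2-/- embryos with the lowest crest levels are both female, and the 3 Zmym2-/- males share 1 number in their names, so sex and these embryos cannot be told apart.

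**Figure D3:**
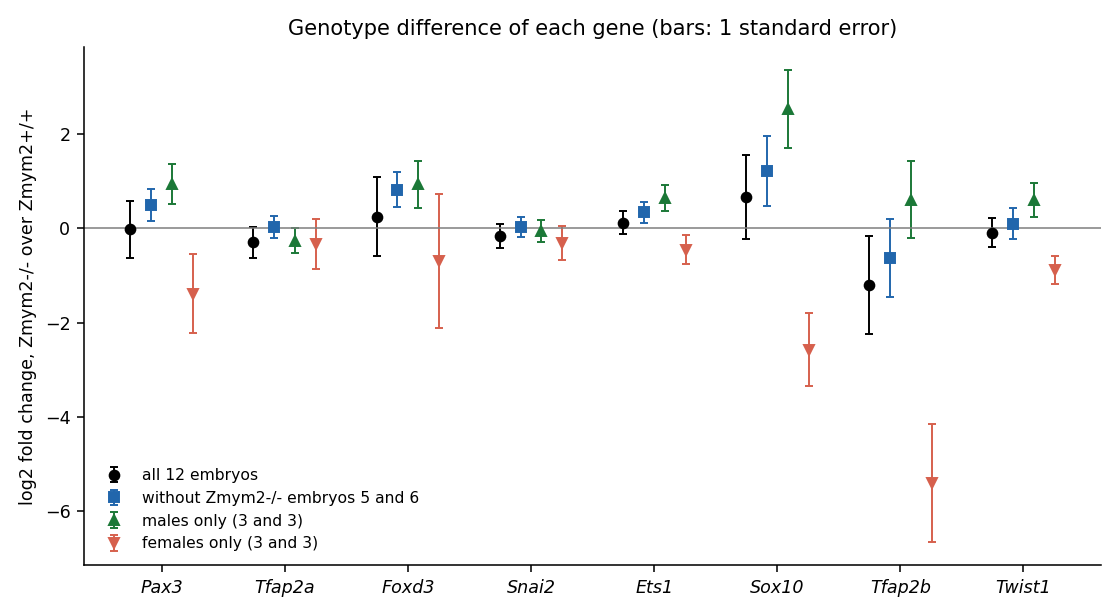
Difference between Zmym2-/- and Zmym2+/+ embryos (log2 fold change, positive where Zmym2-/- is higher) for each of the 8 genes, with all 12 embryos (circles), without Zmym2-/- embryos 5 and 6 (squares), in males (triangles up) and in females (triangles down). Bars are 1 standard error of the edgeR fit; Sox10 is at 2.53 in males and -2.58 in females, and no gene passed the test in any of the 4 fits.

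Across the 12 embryos the levels of the 8 genes varied together, and part of this rested on the 2 lowest embryos. All 28 pairs had a positive Pearson r of log2 CPM, between 0.20 and 0.96. After adjustment over the 28 pairs, 19 passed by r and 9 by Spearman's rho (two-sided permutation test, adjusted p under 0.05). The share for pairs of other genes was not counted, so varying together is not shown to be particular to the crest genes. Genes outside the 8 tracked them as closely, with r of 0.983 for Cap2 and Twist1 after subtracting genotype means. Without the 2 embryos farthest from the median of the first gene, 10 pairs had an r above 0.5. The embryos left out were Zmym2-/- embryos 5 and 6 where Pax3, Tfap2a, Foxd3 or Tfap2b came first. They were Zmym2-/- embryo 6 and Zmym2+/+ embryo 3 for Snai2, and Zmym2-/- embryos 1 and 6 for Ets1 and Sox10. By the series letter of the embryo names, 22 of the 28 pairs were positive within the H embryos and all 28 within the J embryos, with 6 embryos in each. Within Zmym2-/- embryos r was positive for every pair, and lowest for Tfap2a and Twist1 (0.56). Within Zmym2+/+ embryos several pairs were negative. Tfap2a was at -0.81 with Sox10 and -0.68 with Pax3, and Snai2 at -0.16 with Sox10, whereas Sox10 and Tfap2b were at 0.94. This difference between genotypes was not tested.

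Pax3 and Foxd3 had the highest Pearson r of the 28 pairs, at r = 0.96 (permutation p = 3e-04, adjusted p = 0.0028) and rho = 0.72 (permutation p = 0.0102, adjusted p = 0.0354). Their r was 0.78 without the 2 farthest embryos, 0.98 within H and 0.97 within J. Sox10 and Tfap2b had r = 0.86 (permutation p = 0.00016, adjusted p = 0.00224) and rho = 0.90 (permutation p = 0.00018, adjusted p = 0.00504), and r was 0.83 without the 2 farthest, 0.81 within H and 0.91 within J. Pax3 and Sox10 had r = 0.87 (permutation p = 3e-05, adjusted p = 0.00084) and rho = 0.78 (permutation p = 0.00405, adjusted p = 0.0250), and r was 0.83 without the 2 farthest, 0.94 within H and 0.87 within J. Tfap2a behaved otherwise: its r with Foxd3 was 0.79 over 12 embryos (permutation p = 0.00846, adjusted p = 0.0237; rho = 0.57, permutation p = 0.0566, adjusted p = 0.122) and -0.17 without Zmym2-/- embryos 5 and 6, so that relation rested on these 2 embryos. All 7 pairs with Tfap2a were negative without the 2 farthest embryos, at -0.42 to -0.02.

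**Figure D4:**
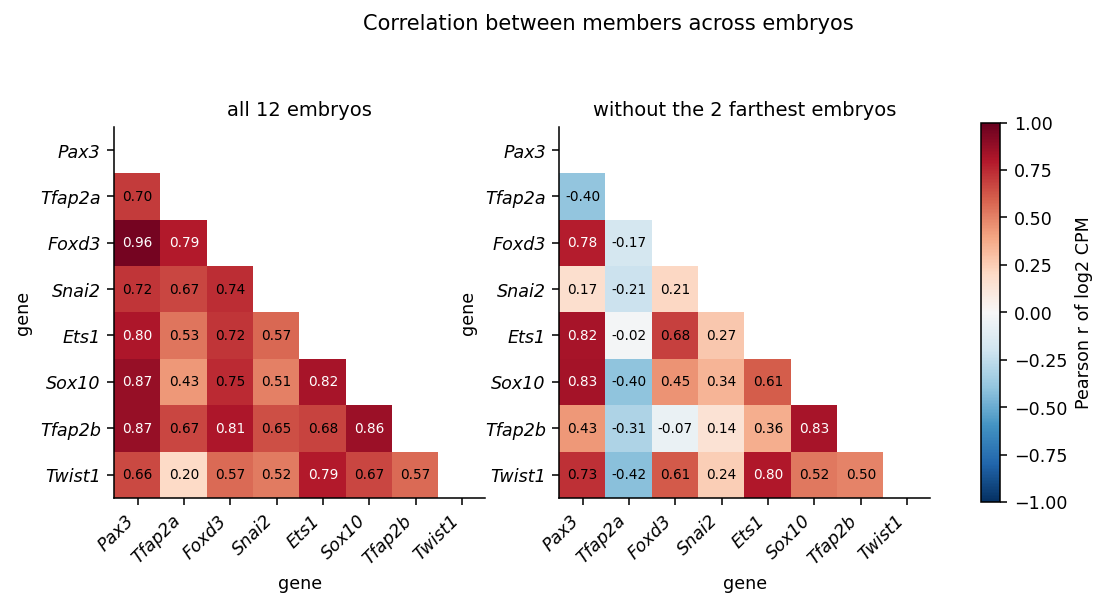
Pearson r of log2 CPM for each pair of the 8 genes over all 12 embryos (left) and without the 2 embryos farthest from the median of 1 gene of the pair (right), on a colour scale of -1 to 1. All pairs on the left are positive, and the pairs with Tfap2a are at or below 0 on the right.

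The genes most like each member over the 12 embryos, after subtracting genotype means and among 13830 genes with a mean of at least 1 CPM, are given as a description. Foxd3 was closest to En1 (r = 0.965), a homeobox gene of the midbrain and hindbrain border, to Bhlha9 (0.961) and to Pax3 itself (0.959). Pax3 was closest to Macc1 (0.974), Tmprss13 (0.973) and Kcnj5 (0.959), and Sox10 to Scube1 (0.980), Actn2 (0.973) and Edaradd (0.971). Scube1 also stood second for Tfap2b (0.974), after Fsd2 (0.975) and before Nr2f1 (0.972). Tfap2a was closest to Irx4 (0.930), Ppp1r3d (0.915) and Irx2 (0.900), and Snai2 to Smoc2 (0.943), Scarf2 (0.939) and Acta2 (0.930). Ets1 was closest to Mpp2 (0.970), Svil (0.966) and Sos2 (0.965), and Twist1 to Cap2 (0.983), Kctd1 (0.974) and Amigo2 (0.973).

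Other genes of the crest pathway were grouped by role, and none was called by edgeR over all 12 embryos. In the same fit 2738 of all 22729 genes had an unadjusted p under 0.05, which is the background for the counts below. Of 12 genes of the neural plate border 0 were called and 1 had an unadjusted p under 0.05, which was Zic5, a zinc-finger gene of the dorsal neural tube. It had 12.6 to 28.9 CPM (median 16.7) in Zmym2-/- embryos, against 6.66 to 15.7 CPM (median 12.7) in Zmym2+/+ embryos, with overlapping ranges (log2 fold change 0.55, SE 0.24, edgeR adjusted p = 0.389). Its relative Zic2 differed by 0.50 on the log2 scale, which did not pass either (edgeR adjusted p = 0.589).

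Of 15 genes of crest specification 0 were called and 1 had an unadjusted p under 0.05. This was Snai1, the Snail repressor, with 19.3 to 39.6 CPM (median 29.8) in Zmym2-/- embryos, against 18.3 to 82.1 CPM (median 43.5) in Zmym2+/+ embryos, and the first range lay inside the second (log2 fold change -0.76, SE 0.32, edgeR adjusted p = 0.382). Myb (0.53, adjusted p = 0.460) and Sox8 (-1.13, adjusted p = 0.548) followed by edgeR. Of 14 surface and adhesion genes of migrating crest, 0 were called and 0 had an unadjusted p under 0.05, and those with the smallest p were the guidance receptors Plxna2 (0.69, adjusted p = 0.477), Nrp1 (0.32, adjusted p = 0.660) and Epha4 (0.39, adjusted p = 0.664) by edgeR. The 18 inducing signals and their readouts also gave 0 called and 0 with an unadjusted p under 0.05, with Rspo1 (0.55, adjusted p = 0.502), Fgf8 (-0.47, adjusted p = 0.510) and Smad6 (0.38, adjusted p = 0.554) leading by edgeR.

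Of 16 genes of crest ectomesenchyme, the crest that forms skeleton and connective tissue of the face, 0 were called and 1 had an unadjusted p under 0.05. Barx1, a homeobox gene of the jaw arches, had 0.688 to 1.34 CPM (median 0.869) in Zmym2-/- embryos, against 1.29 to 1.83 CPM (median 1.69) in Zmym2+/+ embryos. Zmym2-/- embryo 5 alone reached into the Zmym2+/+ range (log2 fold change -0.77, SE 0.24, edgeR adjusted p = 0.295, DESeq2 adjusted p = 0.0185). Alx4 (0.82, adjusted p = 0.484) and Twist2 (-0.56, adjusted p = 0.495) followed by edgeR.

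Among later derivatives, 18 of 20 genes of pigment cells, glia and neurons were in the table, without Tyr and Tyrp1, and 0 were called with 3 at an unadjusted p under 0.05. Mlana, which encodes a melanosome protein, had 0.269 to 0.917 CPM (median 0.341) in Zmym2-/- embryos, against 0 to 0.165 CPM (median 0.0803) in Zmym2+/+ embryos. The groups did not overlap, as for 235 of the 22729 genes that were higher in every Zmym2-/- embryo (log2 fold change 2.53, SE 0.64, edgeR adjusted p = 0.161, DESeq2 adjusted p = 0.00123), and these levels rest on 138 reads over the 6 Zmym2-/- embryos and 20 reads over the 6 Zmym2+/+ embryos. Fabp7, of glial precursors, had 2.05 to 8.60 CPM (median 3.06) in Zmym2-/- embryos, against 4.66 to 10.6 CPM (median 7.46) in Zmym2+/+ embryos (log2 fold change -0.79, SE 0.36, edgeR adjusted p = 0.406).

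The medians of these 6 lists lay between -0.13 and 0.12 on the log2 scale, beside 0.02 over all genes tested. Without Zmym2-/- embryos 5 and 6, 0 genes of these 6 lists were called by edgeR either, and 0 to 3 a list had an unadjusted p under 0.05. The list medians were then 0.02 to 0.27, beside 0.00 over all genes. The medians over both sexes join different values. In males they were 0.75 for the border list, 0.63 for the migrating crest list (14 of 14 genes positive) and 0.82 for the derivative list. By edgeR 1 border gene was called lower and 1 derivative gene higher in males, beside 384 of all 21688 genes called. In these lists 2, 7 and 7 genes had an unadjusted p under 0.05 in males. In females they were -0.01 for the border list, -0.42 for the migrating crest list (0 of 14 positive) and -1.07 for the derivative list. Of these lists 0 genes were called by edgeR in females, and 1, 6 and 6 had an unadjusted p under 0.05. How many of all genes had one in males, in females or without Zmym2-/- embryos 5 and 6 was not counted. Lists of other tissues turned with sex too. The somite list was at 1.67 in males and -1.925 in females, neural tube at 1.16 and -2.13, and head mesoderm at 0.87 and -0.96. The yolk sac (-0.49 and 1.24), pluripotent (-1.08 and 1.775) and blood lists (-1.43 and 0.07) went the other way.

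The lines gave the same genes in cells that are not crest. In mESCs, where Foxd3 is a gene of the pluripotent state, 3 of the 6 genes tested were higher in Zmym2-/- mESCs than in control mESCs and none was lower. Over all genes 19.2% were called, of which 2068 were higher and 1803 lower. Foxd3 had 53.0 and 67.0 CPM in Zmym2-/- mESCs, against 35.5 and 31.9 CPM in control mESCs. Both Zmym2-/- clones were above both control clones, and Foxd3 rose by 0.83 on the log2 scale (SE 0.12, edgeR adjusted p = 0.000416). Tfap2a had 2.27 and 2.50 CPM in Zmym2-/- mESCs, against 0.884 and 0.687 CPM in control mESCs (log2 fold change 1.59, SE 0.32, edgeR adjusted p = 0.00340). Twist1 had 5.50 and 6.15 CPM in Zmym2-/- mESCs, against 3.43 and 2.97 CPM in control mESCs (log2 fold change 0.86, SE 0.22, edgeR adjusted p = 0.0139). The call of Twist1 was lost without control clone 2 (edgeR adjusted p = 0.117).

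The other 3 genes of the mESC table were low and did not pass. Ets1 had 1.43 and 1.73 CPM in Zmym2-/- mESCs, against 1.47 and 1.10 CPM in control mESCs (log2 fold change 0.29, SE 0.32, edgeR adjusted p = 0.600). Sox10 had 1.02 and 1.92 CPM in Zmym2-/- mESCs, against 1.81 and 1.48 CPM in control mESCs (log2 fold change -0.17, SE 0.35, edgeR adjusted p = 0.783). Snai2 was at the limit of detection, with 4 and 3 reads in Zmym2-/- mESCs, against 11 and 5 reads in control mESCs.

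In EBs, 0 of the 7 genes tested were called, with 1 at an unadjusted p under 0.05, and DESeq2 also called 0. Over all genes 7.39% were called (931 higher and 558 lower, edgeR), and 4151 of 20142 had an unadjusted p under 0.05. Foxd3 had 105 and 109 CPM in Zmym2-/- EBs, against 106 and 118 CPM in control EBs, and the clones of both genotypes overlapped (log2 fold change -0.06, SE 0.07, edgeR adjusted p = 0.652). Twist1 had 17.1 and 16.0 CPM in Zmym2-/- EBs, against 14.6 and 12.6 CPM in control EBs. Both Zmym2-/- clones were higher, by 0.29 on the log2 scale, which did not pass after adjustment (SE 0.11, edgeR unadjusted p = 0.0227, adjusted p = 0.156). Sox10 had 3.05 and 3.17 CPM in Zmym2-/- EBs, against 2.43 and 2.51 CPM in control EBs (log2 fold change 0.33, SE 0.21, edgeR adjusted p = 0.418). Tfap2a had 3.16 and 1.96 CPM in Zmym2-/- EBs, against 2.22 and 1.23 CPM in control EBs (log2 fold change 0.60, edgeR adjusted p = 0.322), and was called without Zmym2-/- EB clone 2 (edgeR adjusted p = 0.0375). Ets1 had 4.46 and 5.08 CPM in Zmym2-/- EBs, against 6.07 and 5.63 CPM in control EBs. Pax3 stayed under 1 CPM in all 4 EB libraries and Snai2 under 0.2 CPM.

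**Figure D5:**
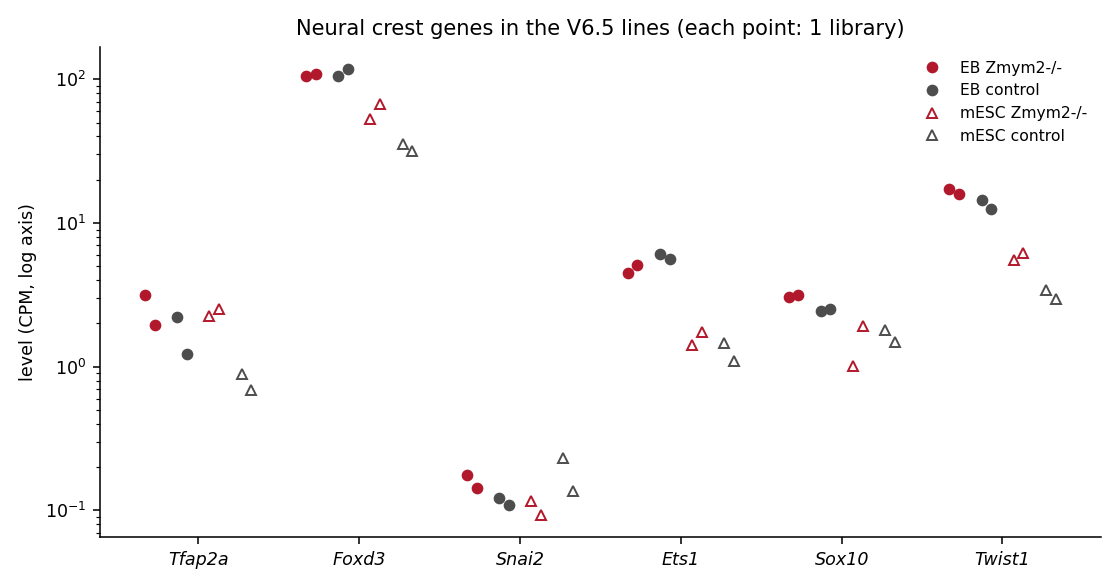
Level (CPM, logarithmic axis) of the 6 genes present in both line tables, in Zmym2-/- EBs, control EBs, Zmym2-/- mESCs and control mESCs, left to right for each gene. Each point is 1 library (2 clones a group), filled circles are EBs and open triangles are mESCs; Foxd3 is between 105 and 118 CPM in all EBs, with Zmym2-/- mESCs above control mESCs.

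Differentiation for 3 days raised most of the measured genes in both genotypes, on 18926 genes counted at both stages. In control lines 4 of 6 genes were higher in EBs than in mESCs, where 46.6% of all genes were called. These were Ets1 (log2 fold change 2.12, SE 0.23), Twist1 (2.03, SE 0.15), Foxd3 (1.68, SE 0.11) and Tfap2a (1.06, SE 0.36), with edgeR adjusted p between 8.59e-08 for Foxd3 and 0.0290 for Tfap2a. The call of Tfap2a was lost without control mESC clone 1 (edgeR adjusted p = 0.0603), without control mESC clone 2 (0.145) and without control EB clone 1 (0.325). In Zmym2-/- lines 4 of 6 genes were higher in EBs, where 45.2% of all genes were called. These were Ets1 (1.54, SE 0.23), Twist1 (1.46, SE 0.14), Sox10 (1.03, SE 0.29) and Foxd3 (0.78, SE 0.11), with edgeR adjusted p between 4.35e-06 for Twist1 and 0.0117 for Sox10, and the call of Sox10 was lost without Zmym2-/- mESC clone 1 (edgeR adjusted p = 0.0935).

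The stage by genotype interaction tests whether the change with differentiation differed. It was called for 1 of the 6 genes, Foxd3, and for 5.25% of all genes (993 genes, and 2325 with a block by clone). The Foxd3 change was smaller in Zmym2-/- lines by 0.90 on the log2 scale (interaction -0.90, SE 0.15, edgeR adjusted p = 0.00509), and it stayed called when any 1 library was left out. Sox10, called only in the Zmym2-/- lines, and Tfap2a, called only in the control lines, did not differ between genotypes by this test (edgeR adjusted p = 0.556 and 0.283).

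Other crest genes moved in the lines in both directions. In mESCs, 3 border genes were higher and 1 lower of 10 tested, and 6 specification genes were higher and 1 lower of 14 tested, beside the 19.2% of all genes called. Named after their values were seen, Id3, a target of BMP signalling, had 64.1 and 60.6 CPM in Zmym2-/- mESCs, against 23.4 and 20.6 CPM in control mESCs (log2 fold change 1.5, SE 0.11, edgeR adjusted p = 1.75e-06). Epha4, an ephrin receptor, had 20.8 and 21.7 CPM in Zmym2-/- mESCs, against 5.18 and 4.70 CPM in control mESCs (log2 fold change 2.10, SE 0.15, edgeR adjusted p = 1.48e-06). Kit, a receptor of pigment cell precursors, had 28.6 and 28.3 CPM in Zmym2-/- mESCs, against 61.3 and 66.2 CPM in control mESCs, and fell by 1.16 on the log2 scale (SE 0.10, edgeR adjusted p = 6.59e-06). The 2 clones of a genotype lay close together for each of these genes. Migrating crest genes split into 2 higher and 3 lower of 13 tested, ectomesenchyme genes into 0 and 1 of 12, derivative genes into 5 and 1 of 14, and inducing signals into 1 and 3 of 15.

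In EBs, beside the 7.39% of all genes called, 1 border gene was higher and 0 lower of 12 tested, and 2 specification genes were higher and 1 lower of 15. Migrating crest genes gave 0 higher and 2 lower of 14, ectomesenchyme genes 0 and 0 of 15 (1 with an unadjusted p under 0.05, edgeR), derivative genes 3 and 0 of 15, and inducing signals 2 and 0 of 16. Id3 was again higher, with 136 and 114 CPM in Zmym2-/- EBs, against 70.7 and 62.0 CPM in control EBs (log2 fold change 0.92, SE 0.09, edgeR adjusted p = 5.41e-05). Axin2, a readout of WNT signalling, had 42.6 and 39.1 CPM in Zmym2-/- EBs, against 23.5 and 20.1 CPM in control EBs (log2 fold change 0.91, SE 0.09, edgeR adjusted p = 9.76e-05). Epha4 went the other way in EBs, with 5.38 and 5.02 CPM in Zmym2-/- EBs, against 8.10 and 8.52 CPM in control EBs (log2 fold change -0.67, SE 0.15, edgeR adjusted p = 0.0150), and its stage by genotype interaction was called (-2.78, SE 0.19, edgeR adjusted p = 1.72e-05). Mlana had 11 and 7 reads in Zmym2-/- EBs and no read in either control EB library.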

How the data were processed

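RNA was sequenced from 12 whole embryos and 8 line libraries (2 clones for each genotype and stage), made with a stranded mRNA kit. Per the labels and methods, the authors used Trimmomatic (0.34) for trimming, STAR (2.7.8a) for alignment to mm10, Picard (2.9.0) for duplicates, HTSeq for gene counts and StringTie (1.3.5) for transcript levels. HTSeq's strand setting is not given in the sources used here, so reads of antisense partners may not be told apart. The authors deposited raw counts per gene, which were tested here as deposited. They also deposited RPKM values for each gene, used here only to order levels between genes. A deposited table of normalized values, a score close to the raw count over a library factor (within 1 for 80.1% to 100% of genes in a library), served only to check the raw counts.

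Genes with at least 10 counts summed over a comparison were tested with edgeR (4.0.16, R 4.3.3): TMM scaling, quasi-likelihood F test, Benjamini-Hochberg adjustment over all genes tested, called under 0.05. The standard error is the log2 fold change over the root of F. DESeq2 (1.42.0), its size factors, a filter of 1 CPM in 6 embryos (2 line libraries), sex and name series as covariates, a replicate block, subsets and leaving out each library were alternatives. Correlations used log2 CPM with a prior count of 0.5 and 100000 permutations. The fits were tested on simulated counts. No pair of libraries was identical (0 pairs), and within a group the lowest r between replicates was 0.953. Nothing says that line replicates are separate cultures beyond their clone number, so p-values measure the spread between clones.

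Replicate numbers of embryos pair nothing: same-numbered deviations correlated at -0.454 to 0.438. Line numbers name clones, and mESC and EB deviations of a clone correlated at 0.397 in Zmym2-/- and 0.141 in control lines. The main fits of EBs against mESCs and of stage by genotype had no clone term. They treated the mESC and EB libraries of a clone as independent, and the block by clone was an alternative. Named were Zmym2, the 8 genes, the 3 genes of smallest p in each crest list (a few of these results are not reported here), the 3 genes most like each of the 8, and markers of other tissues that moved with them. The 8 genes and all lists were chosen with earlier results of these data known, and the line genes outside the 8 and the motifs were picked after their values were seen. Promoters come from RefSeq (GRCm38.p6) and gene positions from GENCODE M21.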

Additional observations from a re-analysis of the deposited data

Results flagged for a closer look

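Tfap2b had 8.46 CPM in Zmym2+/+ embryo 6, far above the other Zmym2+/+ embryos at 0.660 to 2.62 CPM. It was 1 of 18 sets of 6 embryos looked at in this way, and chance alone singles out about 1 in 20. The change of Foxd3 between mESCs and EBs differed between Zmym2-/- and control lines, with an interaction of -0.90 on the log2 scale (SE 0.15, edgeR adjusted p = 0.00509), from a rise of 0.78 in Zmym2-/- lines and of 1.68 in control lines.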

How the results depend on the processing

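In embryos 0 of the 8 genes were called when any 1 embryo was left out and under every alternative run. The 119 genes called in all became 372 with DESeq2, 69 with 1 CPM in 6 libraries, 1 in H embryos, 47 in J embryos, 384 in males, 15 in females, 77 without Zmym2-/- embryos 5 and 6, 70 without Zmym2+/+ embryo 2 as well, and 1 with a block on the number in the names (7 embryos); leaving out 1 embryo gave 80 to 152. Lower genes, 3 of the 119, were 37 with DESeq2, 253 in males and 39 without Zmym2+/+ embryo 5. Signs turned, on the log2 scale, for Pax3 with the 1 CPM filter (0.0053), for Sox10 with name series (-0.28) or sex (-0.011) as covariate, and in H embryos for Ets1 (-0.0087), Sox10 (-1.11), Zic2 (-0.059), Plxna2 (-0.083) and Epha4 (-0.0455). In males they turned for Pax3 (0.94), Tfap2b (0.61) and Twist1 (0.60), and in females for Foxd3 (-0.68), Ets1 (-0.45), Sox10 (-2.58), Zic2 (-0.055), Sox8 (0.83), Plxna2 (-0.21), Nrp1 (-0.034), Epha4 (-0.16) and Alx4 (-0.36). Without Zmym2-/- embryos 5 and 6 they turned for Pax3 (0.49), Tfap2a (0.0275), Snai2 (0.026) and Twist1 (0.10), and without Zmym2+/+ embryo 2 as well for Pax3 (0.33), Tfap2a (0.17) and Snai2 (0.0053). The block on name numbers gave Foxd3 -1.44, Ets1 -0.0575 and Sox10 -1.28. Leaving out 1 embryo gave Pax3 -0.31 to 0.22, Sox10 -0.39 to 1.23, Ets1 -0.11 to 0.26 and Twist1 -0.24 to 0.086. The causes were not tested.

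For sex by genotype, DESeq2 called 2 of the 8 and 2584 genes, and leaving out 1 embryo gave 0 to 3 of the 8 and 0 to 1653 genes, with Tfap2a at -0.39 to 0.81 and Snai2 at -0.082 to 0.47. Without Zmym2-/- embryos 5 and 6 the value was -0.86 for Tfap2a, -0.0074 for Foxd3 and -4e-04 for Snai2.

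A replicate block on replicate numbers, which pair nothing between genotypes, called 49 genes in embryos and turned Foxd3 to -0.46 and Sox10 to -0.13. In EBs it turned Pax3 to 0.086, with 841 genes lower in place of 558. The block by clone called 2325 genes for stage by genotype, and moved the counts for EBs against mESCs by under 1.5 times. Leaving out 1 library gave 404 to 1221 genes for stage by genotype, 2351 to 3858 genes and Sox10 at -0.69 to 0.22 in mESCs, and 0 to 1 of the 7 genes, Foxd3 at -0.15 to 0.018 and Pax3 at -0.86 to 1.84 in EBs. Tfap2a between EBs and mESCs of Zmym2-/- lines ran between -0.34 and 0.36. Counting limits Tfap2b, Mlana and, in lines, Snai2 and Pax3.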
